A study of Mus musculus with 2 samples.

Results

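The genes of the autophagy machinery and of its cargo receptors were examined on Affymetrix arrays of sorted mouse alveolar macrophages, the resident phagocytes of the lung air spaces. Members were the genes of rows carrying a single symbol that began with Atg and a digit, Wipi, Gabarap or Map1lc3, together with 10 genes chosen by name: Ulk1, Ulk2, Becn1, Sqstm1, Tax1bp1, Uvrag, Optn, Nbr1, Rb1cc1 and Calcoco1. This rule found 34 genes on 35 of the 41345 rows, out of 22180 genes in all. Optn has no row with its symbol alone and was not analysed here. The rule itself uses symbols and no measured value, though it was written with earlier results of these data known.

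There was 1 array per genotype, both from adult C57BL6 littermates. One array is labelled wild type and described as carrying floxed Pikfyve alleles (PIKfyve f_f). The other is labelled PIKfyve KO and described as carrying the same floxed alleles with lysm_cre, a Cre recombinase expressed from the lysozyme 2 gene of myeloid cells, so that both genotypes share the floxed alleles and differ in Cre. Per the labels' protocols, viable lung cells positive for Siglec-F and CD11c were sorted after collagenase digestion, and cDNA was amplified from 10 ng of total RNA. How many mice contributed to an array is not stated in the labels. The comparison asks how alveolar macrophages differ without PIKfyve, the kinase that turns phosphatidylinositol 3-phosphate (PI3P) into phosphatidylinositol 3,5-bisphosphate on endosomes and lysosomes.

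Macroautophagy encloses cytoplasm in a double membrane, the autophagosome, and delivers it to lysosomes. The ULK1 kinase complex starts the process, a class III PI3-kinase complex built on Beclin 1 makes PI3P on the growing membrane, and WIPI proteins read that lipid. A pair of ubiquitin-like conjugation systems then attaches the ATG8 proteins (LC3 and GABARAP) to the membrane, where receptors such as p62 dock with their cargo. In macrophages part of this machinery also conjugates LC3 to phagosomes.

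The deposited values are log2 intensities after RMA, the background correction, normalisation and probe summary used for Affymetrix arrays. Pairs of values below give the array labelled wild type first and the array labelled knockout second, and differences are knockout label minus wild type label. With 1 array per genotype there is no replicate error, so no difference was tested, and genotype and array cannot be told apart. A gene is called when the arrays differed by at least 1.5-fold. The local spread is a robust SD of the differences of all genes of similar level (20 bins of 1109 genes) and describes scatter between these arrays, not between animals.

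The Pikfyve row did not read lower in the array labelled knockout, at 5.68 and 5.95. Whether its probes cover the floxed exons is not known here, so it does not check the labels, and the arrays are named by label throughout. All 10 alveolar macrophage markers lay above background on both arrays, where background is the 95th percentile of 1428 olfactory, vomeronasal and taste receptor genes (5.37 and 5.31). Siglecf and Itgax, which encode the sorting markers, read 9.27 and 8.54, and 10.03 and 10.39. Of the 10 markers, 7 were higher and 3 lower in the array labelled knockout. Fabp4 was called higher (0.62), and 2 were called lower, Krt79 (-0.98) and Siglecf (-0.73). Of all genes, 4.37% were called higher and 3.76% lower. Markers of other cells also differed between the arrays. The mean of 7 neutrophil markers was 6.91 and 7.44, that of 9 airway and alveolar epithelium markers 7.89 and 8.39, and that of 6 T and NK cell markers 6.42 and 6.89. The epithelial list was split, with Bpifa1 at 2.47 and Scgb3a1 at 1.47 but Epcam at -1.99, and among the neutrophil markers Csf3r was at -0.64. The mean of 6 monocyte markers was 7.22 and 6.37, and that of 4 B cell markers 6.25 and 6.23. On both arrays all 7 neutrophil, all 4 B cell, 5 of 6 monocyte, 8 of 9 epithelial and 5 of 6 T and NK cell markers lay above background, and F13a1, Sftpb and Klrb1c did not. The part of these cells in the values of the autophagy genes was not tested, and in such bulk samples fewer cells of a type and less RNA per cell cannot be told apart.

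Most autophagy genes read nearly alike on the arrays. Of the 34 members, 32 differed by less than 1.5-fold and 19 by less than 0.2 on the log2 scale. The ATG4 protease gene Atg4a and the ULK1 complex gene Atg101 were at least 1.5-fold higher in the array labelled knockout, which is 5.88% of the members beside 4.37% of all 22180 genes measured. Both calls are lost with loess centring and with an offset of 32, and that of Atg101 also with quantile normalization. None was 1.5-fold lower, beside 3.76% of all genes. The count of higher members is thus close to the share of all genes. The median difference was 0.06 over the members, with 19 higher and 15 lower, and -0.01 over all genes, of which 46.3% were higher. Median centring, which adds 0.07 to every difference, gave 24 higher and 10 lower members and 56.6% of all genes higher, while quantile normalization and loess centring each gave 20 and 14. Of the members, 32 lay above background on both arrays and reached the median of all rows, while Atg2b and Atg9b did neither.

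**Figure D1:**
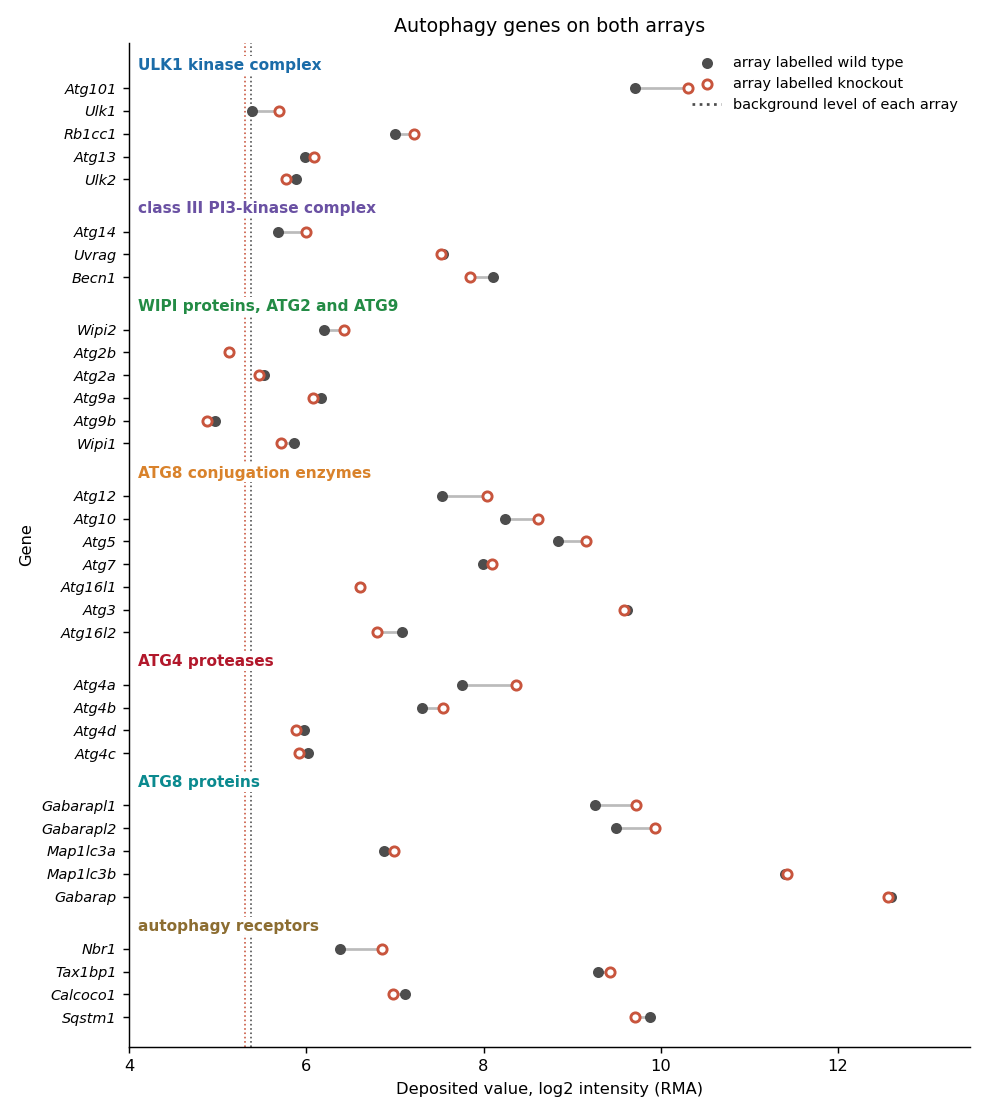
Deposited log2 intensity (horizontal axis) of each of the 34 autophagy genes (vertical axis, grouped by role) on the array labelled wild type (filled) and the array labelled knockout (open); each point is 1 array, and dotted lines mark the background level of each. Atg101, Atg4a, Atg12 and Nbr1 show the widest gaps, Atg2b and Atg9b lie left of the dotted lines, and positions of different genes come from different probes and are not compared.

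Of the 19 members that differed by less than 0.2, 6 were higher and 13 lower, so most of the larger differences were on the higher side. Among the larger ones, only Becn1 (-0.26) and Atg16l2 (-0.29) were lower. Over all members, 10 of 34 (29.4%) were higher by more than their local spread, beside 16.2% of all genes, and 1 (2.94%), Atg16l2, was lower by more than it, beside 17.9% of all genes. This threshold was added after the values had been seen. It was applied to differences from 0, though the spread is taken about the median of each bin, and the shares of all genes are not matched for level. Measured from the bin median, Atg10 (0.26) and Atg5 (0.20) fell within their local spread of 0.31. On the lower side, Sqstm1 (-0.29) was then past its local spread of 0.24, and Atg16l2 (-0.2796) was within its own of 0.2804. The direction of all genes changed with their level, so members were also set beside genes of like level. Among genes with a mean under 7, the median difference was -0.03 for 16 members and -0.04 for 17626 genes. It was 0.21 for 9 members and 0.05 for 3055 genes at means from 7 to 9, and 0.14 for 9 members and 0.13 for 1499 genes at means of 9 or more. Measured from the median of genes in the same bin, 20 members were above and 14 below, with a median of 0.04. In the middle range 3 of the 9 members were lower. The gap between members and other genes there was not tested, and the local spread describes single genes, not a median of 9.

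**Figure D2:**
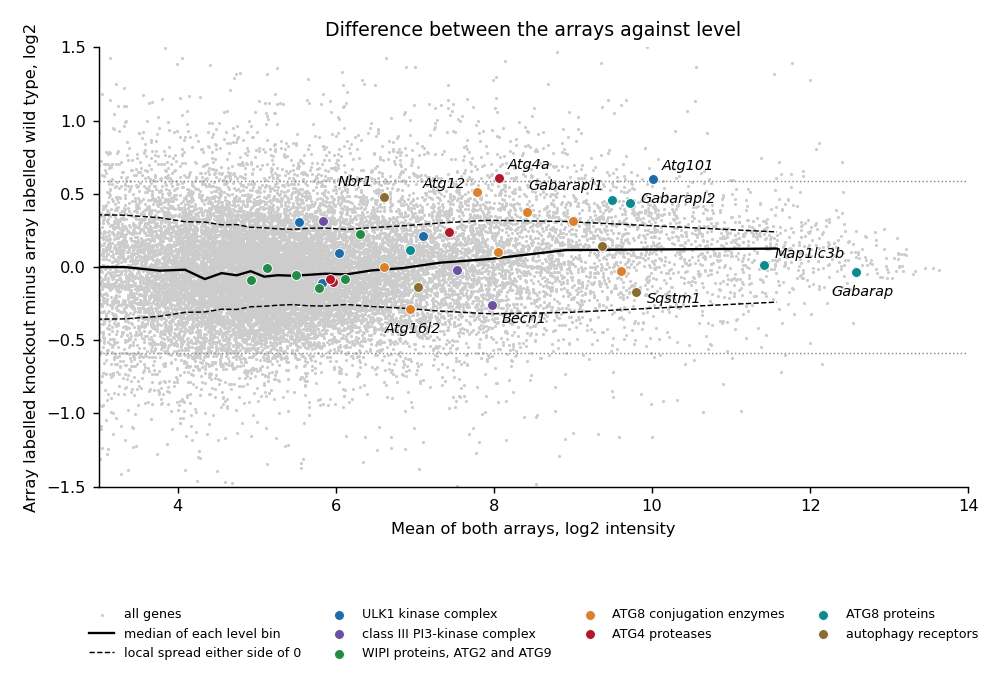
Difference between the arrays on the log2 scale (vertical axis) against the mean of both arrays (horizontal axis), with all genes in grey, the 34 autophagy genes in colour by role, and dotted lines at 1.5-fold; 1060 genes lie outside the axes. The solid line, the median of each level bin, climbs to 0.13 in the top bin, and Gabarap and Map1lc3b lie below it while Atg101 and Atg4a lie on the upper dotted line or above it.

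The promoters of the 2 called genes are shown first, with those of the members that hold the E-box CACGTG, the core of the site that the MiT/TFE transcription factors TFEB, TFE3 and MITF recognise in many lysosomal and autophagy genes. Sequences are from RefSeq (mouse build GRCm38.p6), which gave windows of 250 bases before to 50 after a start for 29 of the 34 genes, Atg4a, Atg4c, Nbr1 and Tax1bp1 having a pair each. The bases before the starts of Atg101 (chr15:101284201-101284300, plus strand) and Atg4a (chrX:140953745-140953844 and chrX:140956807-140956906, plus strand) are the 100 nearest the start, and neither they nor the whole windows hold CACGTG.
Atg101: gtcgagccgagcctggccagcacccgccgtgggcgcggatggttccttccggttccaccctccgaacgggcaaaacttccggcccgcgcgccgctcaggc
Atg4a, first start: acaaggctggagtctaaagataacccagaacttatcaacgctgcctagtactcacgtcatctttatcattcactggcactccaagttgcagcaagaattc
Atg4a, second start: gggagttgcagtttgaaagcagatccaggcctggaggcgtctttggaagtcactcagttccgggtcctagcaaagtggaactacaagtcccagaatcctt

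The E-box was found in 4 of 29 members (13.8%), beside 9.19% of the 16990 measured genes with a window and 8.09% of all 27025 genes of the table. CACGTG reads the same on both strands. It is in capitals in the stretches of Atg3 (chr16:45158708-45158790, plus strand), Atg5 (chr10:44268298-44268348, plus strand), Atg7 (chr6:114670937-114670996, plus strand) and Atg14 (chr14:47568425-47568462, minus strand).
Atg3: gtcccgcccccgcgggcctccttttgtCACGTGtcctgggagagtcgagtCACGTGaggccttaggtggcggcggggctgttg
Atg5: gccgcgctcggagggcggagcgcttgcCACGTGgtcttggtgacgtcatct
Atg7: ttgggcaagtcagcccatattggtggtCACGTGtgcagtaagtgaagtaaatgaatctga
Atg14: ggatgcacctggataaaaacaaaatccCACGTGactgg

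Atg3 holds the E-box at 2 places, starting 94 and 71 bases before its start site, and the arrays differed there by -0.03. In Atg7 it begins 132 bases before the start, and the difference was 0.11. In Atg5 it begins 14 bases before the start and in Atg14 at the base before it, with differences of 0.31 and 0.32. Members with the motif thus ran from no difference to a small one, and none was called. The genes of the factors that read it, named here for the motif, read 5.88 and 5.77 (Tfeb), 5.59 and 5.69 (Tfe3), and 7.53 and 7.45 (Mitf). A motif match describes letters in the window, not binding.

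Both strands were also searched for 4 other motifs. Counting a gene when any of its windows holds the motif, the GC box GGGCGG was found for 21 of 29 members (72.4%), beside 49.5% of measured genes and 38.2% of all genes of the table. None of the motif shares is matched for level, and the gap was not tested. On each array 32 of 34 members lay above background, while 11150 (wild type label) and 11203 (knockout label) of all 22180 genes did. The antioxidant response motif TGACNNNGC was found for 4 (13.8%), Atg13, Map1lc3b, Tax1bp1 and Ulk2, beside 14.9% of measured genes and 13.99% of all genes. The FOXO motif GTAAACA and the ATF4 motif TTGCATCA were found for none, beside 3.54% and 0.895% of measured genes and 4.05% and 1.03% of all genes.

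Among the genes of the ULK1 kinase complex, 4 of 5 were higher in the array labelled knockout and the median difference was 0.21, with a range of 0.17 to 0.28 under the 5 other settings. Atg101, whose product stabilises ATG13 in the complex, read 9.71 and 10.31, a 1.52-fold difference of 0.60 against a local spread of 0.24. Among the 1109 genes of its level, 94.6% differed by less. Ulk1, the kinase itself, read 5.39 and 5.69, close above the background level of 5.37 in the array labelled wild type. Rb1cc1, which encodes the scaffold FIP200, read 6.996 and 7.210, and Atg13, the adaptor that ties the kinase to it, read 5.99 and 6.08. The related kinase gene Ulk2 was the one lower member, at 5.88 and 5.77. Only Atg101 and Ulk1 in this group differed by more than their local spread.

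The genes of the class III PI3-kinase complex did not share a direction. Becn1, the Beclin 1 scaffold, read 8.11 and 7.85, 1.19-fold lower in the array labelled knockout. Atg14, the subunit that directs the complex to sites of autophagosome formation, read 5.680 and 5.996, 1.24-fold higher. Uvrag, which replaces ATG14 in the complex of endosomes, read 7.54 and 7.52. The group's median was -0.02, near 0, and it was 0.05 with median centring, which shifts every gene alike.

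The WIPI, ATG2 and ATG9 genes act at the growing membrane, where WIPI proteins bind PI3P, the substrate of PIKfyve. Here 5 of 6 were lower in the array labelled knockout, but by little, with a median of -0.07 that came to -0.0022 at its nearest to 0 under the other settings. Of the 4 above background, 3 were lower, and their median was -0.07. Most genes with a mean under 7 were lower too, 42.6% of them being higher. Wipi1 read 5.86 and 5.71, and Wipi2, which recruits the conjugation machinery through ATG16L1, read 6.20 and 6.42. The lipid transfer protein gene Atg2a read 5.52 and 5.47, and the scramblase gene Atg9a read 6.16 and 6.08. Atg2b (5.13 and 5.12) and Atg9b (4.97 and 4.88) were not above background, so their values give no fold. No member of this group differed by more than its local spread. Atg2a and Atg2b each took the opposite sign under 3 of the 5 other settings.

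The conjugation genes held the widest mix. Atg12, the ubiquitin-like protein that is joined to ATG5, read 7.53 and 8.04, a 1.43-fold difference of 0.51 against a local spread of 0.32. Its conjugating enzyme gene Atg10 read 8.24 and 8.61 (a difference of 0.37) and its target Atg5 read 8.84 and 9.16 (1.24-fold). The E1-like enzyme gene Atg7, which activates ATG12 and the ATG8 proteins alike, read 7.99 and 8.10. Of these 4 genes, Atg12 and Atg10 exceeded their local spreads, Atg5 was just past its own (0.312 against 0.311) and Atg7 lay within its own. Measured from the median of their bins, only Atg12 of the 4 was past its local spread. Atg3, the E2-like enzyme of the ATG8 branch, read 9.62 and 9.59, a difference of -0.03 that was 0.04 with median centring. Atg16l1, which completes the ATG12-ATG5 complex, read 6.61 on both arrays. Its relative Atg16l2, which is not required for canonical autophagy, read 7.08 and 6.79 and had the most negative difference of all 34 members, at -0.29 against a local spread of 0.28. Over the 7 genes the median was 0.11, from 0.08 to 0.17 under the other settings.

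Of the ATG4 proteases, which trim new ATG8 proteins and later release them from membranes, Atg4a had the largest difference of all members. Atg4a, an enzyme with a preference for the GABARAP family, read 7.75 and 8.36, a 1.53-fold difference of 0.61 against a local spread of 0.32. Of the genes at its level, 90.3% differed by less. Atg4b, the most active of the proteases on LC3, read 7.31 and 7.54. Atg4c and Atg4d read 6.02 and 5.92, and 5.97 and 5.89. The family was thus split, with Atg4a and Atg4b higher and Atg4c and Atg4d lower by at most 0.10, and its median was 0.08, from 0.07 to 0.14 under the other settings.

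The ATG8 proteins form 2 subfamilies. In the LC3 subfamily, Map1lc3b, the LC3B used to follow autophagosomes, read 11.41 and 11.43, and Map1lc3a read 6.88 and 6.99. In the GABARAP subfamily, Gabarapl1 read 9.26 and 9.72 (1.37-fold) and Gabarapl2 read 9.50 and 9.93 (1.35-fold). Both exceeded their local spreads, of 0.31 and 0.24, while Gabarap itself did not. Gabarap had 2 rows, one reading 12.30 and 12.22 and the other 12.90 and 12.91, so that its mean difference of -0.04 joins a lower row and a higher one. Gabarap took the opposite sign with median centring and with its brighter row alone, and Map1lc3b with quantile normalization and loess centring. The group's median was 0.11, from 0.09 to 0.18 under the other settings. These genes are related in sequence, and the positions of the probes are not known here, so shared signal between them was not tested.

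Of the receptors that link cargo to ATG8 proteins, Nbr1 stood apart. Nbr1, a receptor for ubiquitinated proteins, read 6.37 and 6.85, a 1.39-fold difference of 0.48 against a local spread of 0.27. Sqstm1, which encodes its partner p62, read 9.88 and 9.71. Sqstm1 transcripts are known to respond to oxidative stress through NRF2. Tax1bp1, another ubiquitin-binding receptor, read 9.29 and 9.43, and Calcoco1, a receptor of the endoplasmic reticulum and Golgi, read 7.11 and 6.98. Measured from 0, the differences except that of Nbr1 were within the local spread. Measured from the median of its bin, Sqstm1 was at -0.29, past its local spread of 0.24. The median of the 4 genes, 0.00, ranged from -0.03 to 0.07 under the other settings.

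**Figure D3:**
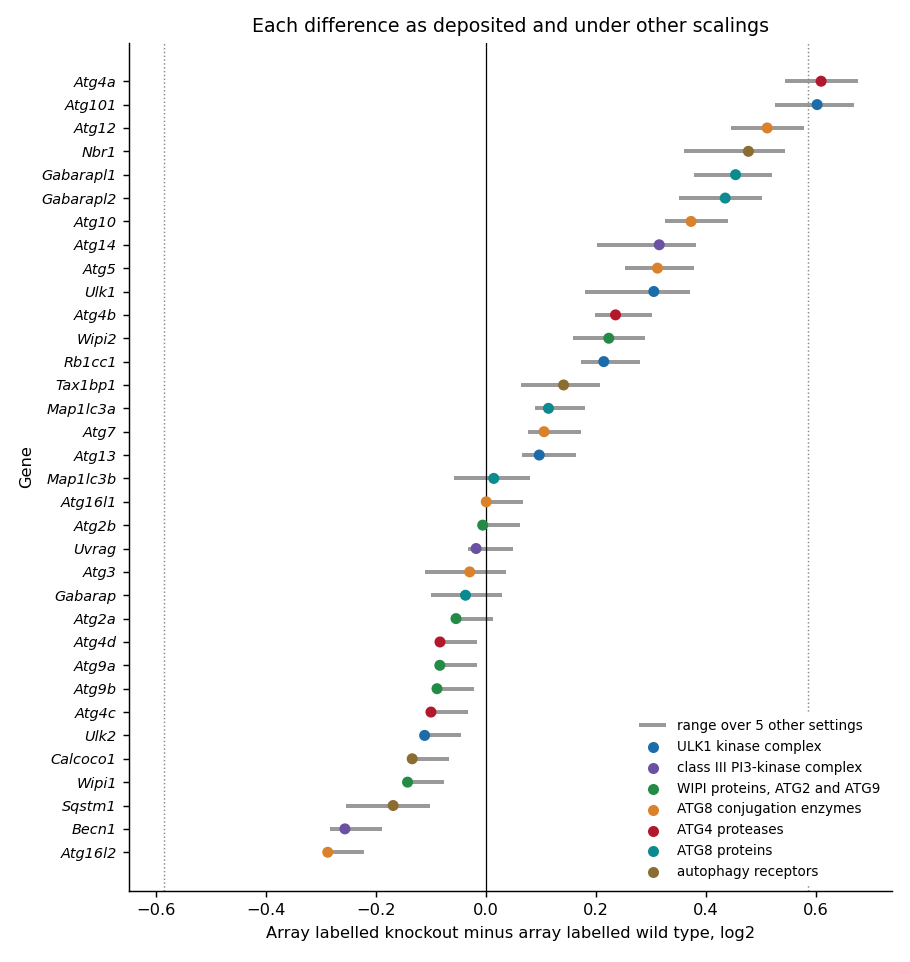
Difference of each of the 34 autophagy genes on the log2 scale (horizontal axis) as deposited (points, coloured by role) and its range under 5 other settings (bars); dotted lines mark 1.5-fold. Only Atg4a and Atg101 reach the upper dotted line as deposited, and the bars of Uvrag, Atg2a, Atg2b, Atg3, Gabarap and Map1lc3b cross 0.

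Other genes of the pathway, from 4 lists, gave 42 measured genes with a median of -0.03, of which 19 were higher and 22 lower. Of these 42, 1 was called higher and none lower, beside 4.37% and 3.76% of all 22180 genes. Further initiation and phagophore genes were balanced, with 5 of 11 higher, 5 lower and a median of 0.00 that ranged from -0.01 to 0.07. Tmem41b, a scramblase of the endoplasmic reticulum, read 7.41 and 7.79, and the PI3P-binding protein gene Wdr45b read 7.24 and 6.93. Of the fusion and tethering genes, 6 of 7 were higher, with a median of 0.12 and a range of 0.09 to 0.18. They differed by little, with Tecpr1 at 5.39 and 5.62 and Plekhm1, an adaptor between RAB7 and ATG8 proteins, at 6.61 and 6.36. Selective receptors outside the rule were split, with 5 of 11 higher and a median of -0.02 that ranged from -0.03 to 0.05. Among them the endoplasmic reticulum receptor genes Retreg1 and Tex264 read 8.96 and 8.62, and 8.59 and 8.86. Genes of upstream control were mostly lower, 10 of 13, with a median of -0.11 that ranged from -0.11 to -0.04. Most of them had a mean under 7, where 42.6% of all genes were higher, beside 23.1% of this list. Of the 13, 12 lay above background on the array labelled wild type and 11 on the array labelled knockout. The called gene was Prkaa1, a catalytic subunit of the energy sensor AMPK that phosphorylates ULK1, which read 7.84 and 8.42, a difference of 0.59, just past 1.5-fold, against a local spread of 0.32. In this list 6 of 13 genes (46.2%) differed by more than their local spread, beside 34.2% of all genes. Of those 6, all but Prkaa1 were lower. Among the lower ones, Prkaa2 (5.01 and 4.57) lay above background on neither array. Tsc1 (5.62 and 5.19) lay above it only on the array labelled wild type.

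**Figure D4:**
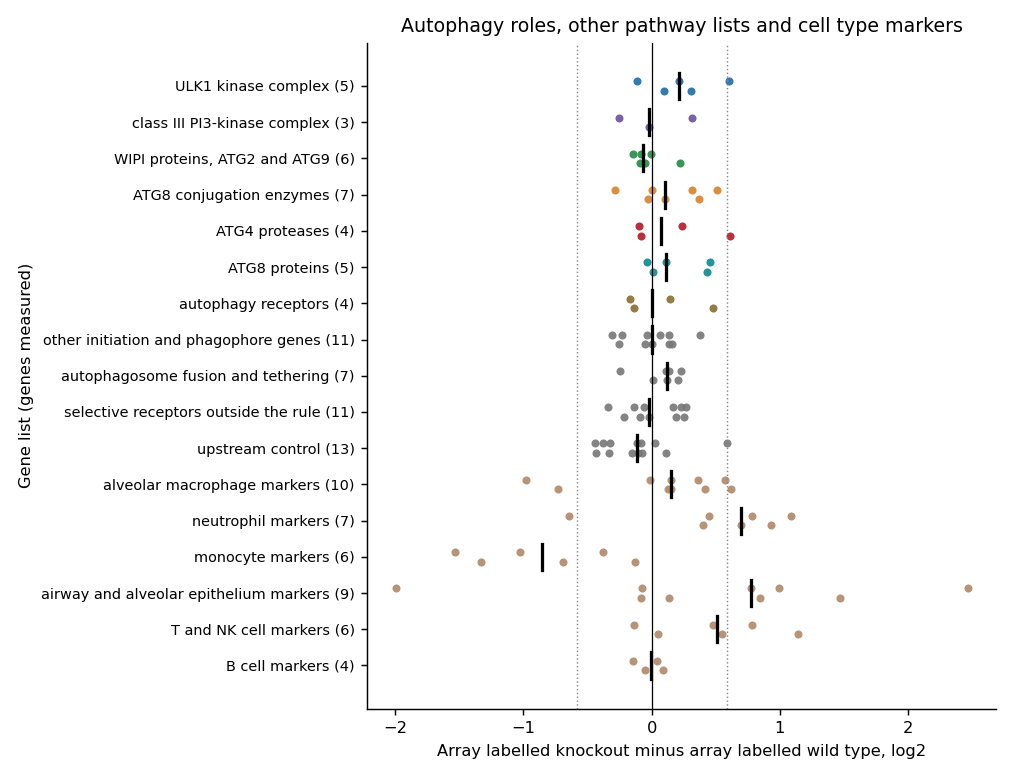
Differences between the arrays on the log2 scale (horizontal axis) for the genes of each list (vertical axis, genes measured in brackets); points are genes, black bars are list medians and dotted lines mark 1.5-fold. The 7 autophagy roles (top) have medians from -0.07 to 0.21, with single genes between -0.29 and 0.61. The medians of the cell lists are 0.15 (alveolar macrophage), 0.70 (neutrophil), -0.86 (monocyte), 0.78 (epithelial), 0.51 (T and NK cell) and -0.01 (B cell).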

How the data were processed

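RNA of sorted alveolar macrophages was measured on 1 array per genotype. The authors deposited log2 values made with RMA, per the submitters' processing notes; no version or genome build is given in the sources used here, and log2 is inferred from RMA and from the range of 0.77 to 13.86. RMA brings both arrays to a similar distribution, so a shift shared by most genes would not show. Rows were named through the platform annotation: 23521 rows have 1 symbol, 1814 several and 16010 none. Rows of a gene were averaged, with no filter on low values, and all 34 members' Entrez identifiers matched RefSeq. The local spread was computed in 20 bins of mean level as the median absolute deviation of the differences, times 1.4826. The members, roles and lists were chosen with earlier results of these data known. Every member was named. Of each other pathway list, called genes or else the 2 with the largest absolute difference were named. Tfeb, Tfe3 and Mitf were also named for the motif, and Prkaa2 and Tsc1 for their level near background. Alternatives were other filters and thresholds, median centring, quantile normalization, loess centring (span 0.3), an offset of 32 on the linear scale, and the row with the highest mean. List medians under the last 5 of these settings and the motif search were added after the data had been seen. Calculations used Python 3.11.15 with pandas 2.3.3 and statsmodels 0.14.6, and the code was tested on simulated data.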

Additional observations from a re-analysis of the deposited data

How the results depend on the processing

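The count of 2 members called higher was kept with the 3 filters on low values, with median centring and with the row of the highest mean. It was 1 (Atg4a) with quantile normalization, 0 with loess centring and 0 with the offset of 32, since the differences of Atg4a and Atg101 lie just past 1.5-fold and ran from 0.54 to 0.68 and from 0.53 to 0.67. It was also 0 at a threshold of 2-fold and 0 at 3 local spreads. No member was called lower under any setting. The median of the members ran from 0.04 with the offset to 0.13 over the 22 members that reached the 75th percentile of all rows. Of 34 members, 28 kept their sign under the 4 scalings and with the row of the highest mean, a choice that bears on Gabarap alone. No paired analysis was possible because each genotype has 1 array. Precision is limited by the number of arrays, and members near background, such as Ulk1, have the least signal to show a difference.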

Other observations

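A further row, annotated to both Becn1 and Cntd1 and therefore left out, read 5.33 (wild type label) and 5.12 (knockout label), below background on both arrays.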
